A study of Mus musculus with 2 samples.

Results

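ATP-binding cassette (ABC) transporter genes were compared between primitive and maturing haematopoietic stem cells (HSC) of mouse bone marrow. The genes were all those on the array whose annotated symbol begins with Abca to Abcg followed by a number, except Abcg2, and whose probe sets carry that single symbol. The rule gave 35 genes with 64 probe sets, out of 12393 genes with a single symbol in the series. All 35 symbols matched RefSeq through their Entrez identifiers.

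The series holds 1 array of primitive HSC, which per the labels kept long-term repopulating activity, and 1 array of maturing HSC, which had largely lost it. Both populations were sorted by flow cytometry after a short culture, neither was treated, and the sources used here name no strain, age, sex or sorted surface marker. Each array was hybridised with RNA copied from a PCR-amplified, size-fractionated cDNA library cloned in phage. A value therefore reflects that library rather than the cells directly. It is a signal in arbitrary units that also varies between probe sets of the same gene, not a transcript's share. With 1 array per population there is no replicate, so the error between samples is unknown and no p-value is given.

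ABC proteins bind and hydrolyse ATP in paired cassettes and use that energy to move lipids, peptides, bile salts, conjugates or metals across membranes. Full transporters carry both cassettes and both membrane domains in 1 chain, smaller members carry a single set and pair up, and the E and F subfamilies have cassettes but no membrane domain and act on ribosomes. In bone marrow the family is best known for the pumps that clear fluorescent dyes from stem cells, a property long used to sort them.

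Intensities are MAS5 signals in arbitrary units, and a value under 441.0, the median of all non-control probe sets on both arrays, is treated as at the floor. Each gene is represented by its probe set with the highest mean intensity, and ratios are log2 of primitive over maturing intensity. Where a single array is above the floor, the ratio is only a bound, written as "at least". Of the 35 genes, 24 were above the floor on at least 1 array, 13 on both, 8 on the primitive array alone and 3 on the maturing array alone. The remaining 11 (31.4%) were under the floor on both arrays, against 28.6% of all 12393 genes. Of those 12393 genes, 8852 were above the floor on at least 1 array and 5525 on both. A ratio above 0 was found in 4664 of them, of which 2975 were above the floor on both arrays. A ratio below 0 was found in 4188, of which 2550 were above the floor on both. The others in each direction were bounds.

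**Figure D1:**
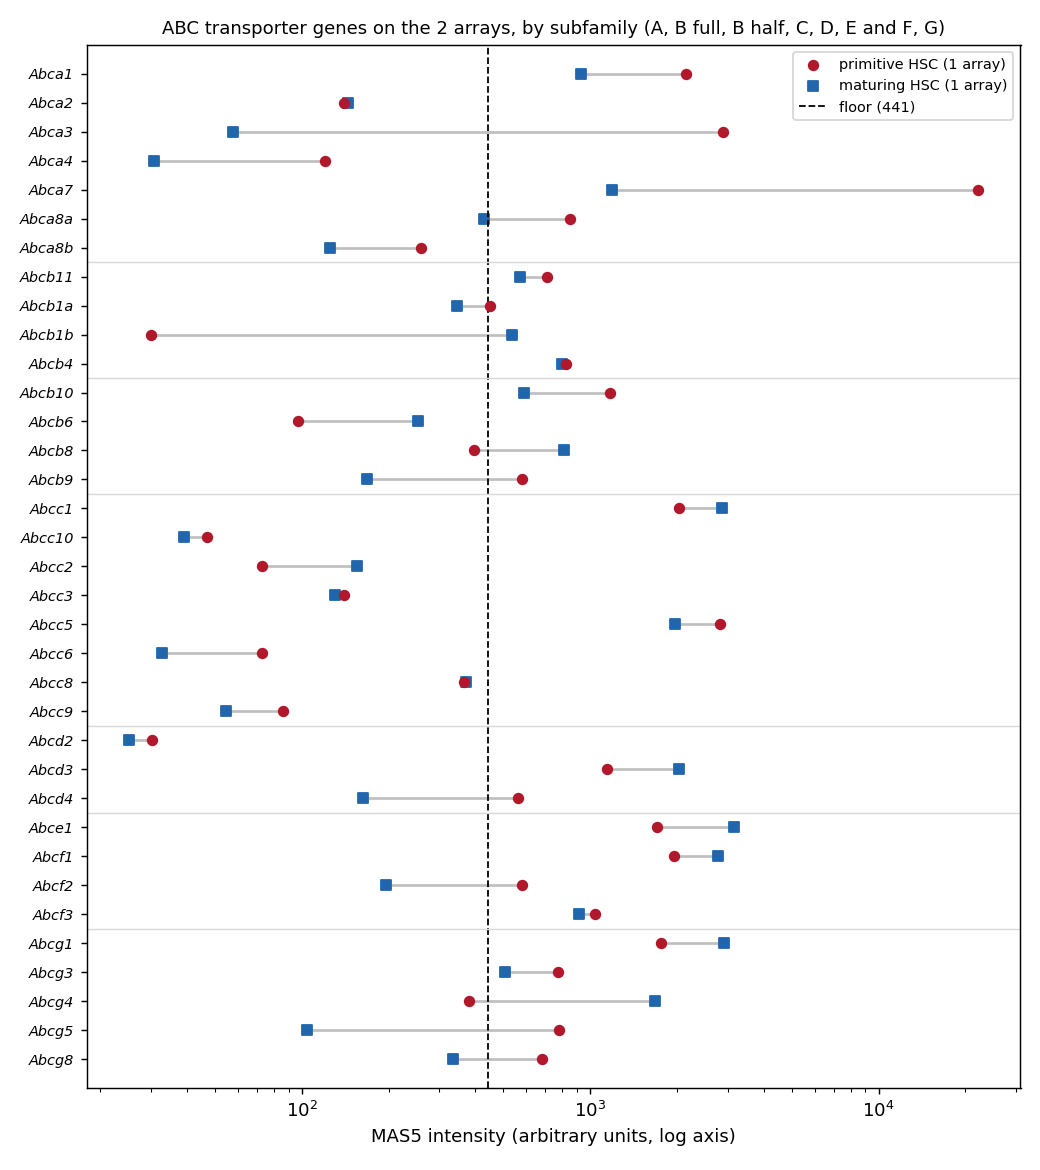
MAS5 intensity (log axis, arbitrary units) of each of the 35 ABC transporter genes in primitive HSC (red circles) and maturing HSC (blue squares), 1 array each, ordered by subfamily; the dashed line is the floor of 441. Abca7 stands at 22137 on the primitive array and at 1193 for maturing HSC, and most of subfamily C lies left of the floor on both arrays.

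The ABC genes spread over both directions. A total of 2 of 24 measured members (8.33%), Abca7 and Abca3, were at least 4-fold higher in primitive HSC, where 3.45% of all 8852 measured genes were. In maturing HSC, 0 of the 24 passed 4-fold, where 4.69% of all measured genes were. At 2-fold the counts were 3 members (12.5%) higher in primitive HSC, against 15.6% of all genes, and 1 member (4.17%), Abcg4, higher in maturing HSC, against 17.6%. With so few members, each of these shares turns on 1 or 2 genes.

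The remaining 20 members (83.3%) had a ratio or bound under 2-fold. Of these 20, 9 were bounds, whose true difference may be larger. The ratio or bound was under 0.82 in size in 14 of 24 members, where 0.82 is the SD among probe sets of the same gene (1318 genes). That SD was taken from probe sets above the floor on both arrays, while the 14 include bounds that the floor limits. The share of all measured genes under 0.82 is not given here, so the count is not read as a trait of the family. The median log2 ratio of the 24 was 0.33, against 0.07 over all measured genes. It was 0.25 without Abca7 and Abca3. A ratio above 0 was found in 16 of 24 members (66.7%) and in 52.7% of all measured genes, and a ratio below 0 in 8 of 24 (33.3%) and in 47.3%. With the hybridisation controls the median over genes then above the floor on both arrays was -0.68. It was 0.09 over the 5525 such genes as reported, a different set, because floor and probe sets were set again. Of 23 measured members 7 were then above 0, with a median of -0.67, and of all 9101 measured genes 1816, with a median of -0.74. That scaling moves all ratios toward maturing HSC by construction, so the shift is not particular to the family. The family as a whole has no direction that holds under every scaling. Over the 24 members the rank correlation of the ratio with genomic span (GRCm38.p6) was 0.13, and over 8837 measured genes it was -0.14. Genes are not independent, and all points share the same pair of libraries.

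**Figure D2:**
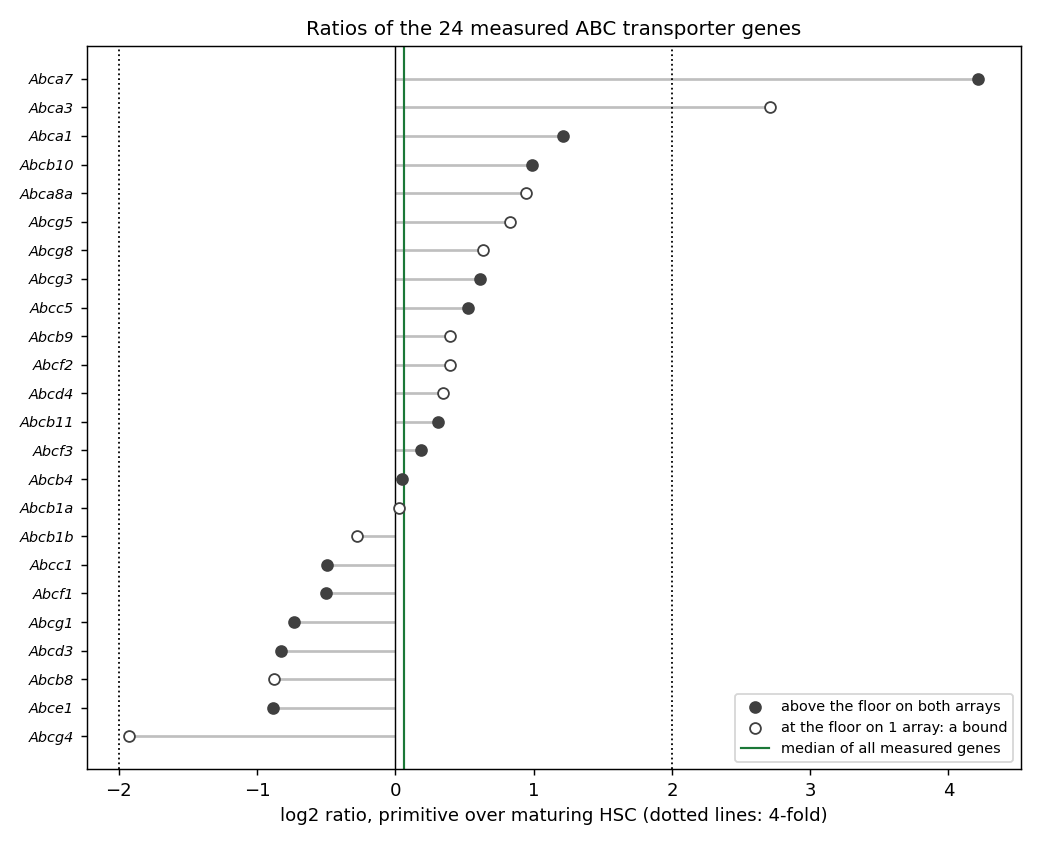
Log2 ratio of primitive over maturing HSC for the 24 measured ABC transporter genes, 1 array each; filled points are above the floor on both arrays, open points are bounds, dotted lines mark 4-fold and the green line the median of all measured genes (0.07). Abca7 (4.21) and Abca3 (a bound of 2.71) lie past 4-fold, and Abcg4 (a bound of -1.92) lies just short of it on the other side.

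Subfamily A holds large full transporters that move phospholipids and sterols, and all 4 of its measured members read higher in primitive HSC. Abca7, a phospholipid transporter linked to phagocytosis, read 22137 in primitive HSC and 1193 in maturing HSC. It was bright on the primitive array and well above the floor on both, with a log2 ratio of 4.21 (18.6-fold), and it ranked 6 by ratio among the 5525 genes measurable in both populations. Abca7 has 1 probe set, so no second probe set could be set beside it. Its ratio stayed between 3.24 and 4.21 under every setting tried. With 1 probe set above every floor tried on both arrays, only the scalings could move it, and the floor and probe set settings left it at 4.21.

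Abca3, which loads phospholipid into the lamellar bodies of lung alveolar cells, read 2888 in primitive HSC and 57.9 in maturing HSC. The maturing value was under the floor, which puts Abca3 at least 6.55-fold higher in primitive than in maturing cells. A second probe set read 1362 in primitive HSC and 533.1 in maturing HSC (log2 ratio 1.35), and the remaining one read 856.5 and 117.3 (a bound of 0.96). All 3 probe sets were on the same side, but only 1 of them passed 4-fold, and their median of 1.35 did not.

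Abca1, which exports cholesterol and phospholipid to apolipoprotein A-I and so starts the formation of HDL, read 2151 in primitive HSC and 928.1 in maturing HSC, a log2 ratio of 1.21. Another Abca1 probe set went the other way, with 131.7 in primitive and 603.2 in maturing HSC (a bound of -0.45), and the remaining one was under the floor on both arrays. The direction of Abca1 therefore differed between its probe sets. Abca8a read 848.9 in primitive HSC and 429.9 in maturing HSC (at least 1.92-fold higher in primitive). Its genomic neighbour Abca8b, the retinal transporter gene Abca4 and the lysosomal lipid transporter gene Abca2 were under the floor on both arrays. All 4 measured members of the subfamily had ratios above 0 under each of the 5 scalings, though Abca8a was as low as 0.01 with the hybridisation controls. The 5 scalings include the reported one and the values as deposited, which nearly repeat it.

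The start regions of 4 genes are shown because they are the sequences from which these transcripts begin, 250 bases before to 50 after each RefSeq start in GRCm38.p6, written 5′ to 3′ on the gene's strand. Abca7 and Abca3 are the pair past 4-fold, Abce1 has the lowest ratio of any single member probe set, though not in the one used for the gene, and Abcg5 shares part of its window with Abcg8. Capitals mark motifs searched on both strands. These were the GC box with the letters GGGCGG, the hexamer that nuclear receptors bind as AGGTCA, the TATA box as TATAAA and the E-box as CACGTG. The cAMP response element, TGACGTCA, and the CCAAT box were also searched. This last pair of motifs was added after the windows had been read. Matched motifs did not overlap in the printed windows.
Abca7, chr10:79996244-79996543, plus strand: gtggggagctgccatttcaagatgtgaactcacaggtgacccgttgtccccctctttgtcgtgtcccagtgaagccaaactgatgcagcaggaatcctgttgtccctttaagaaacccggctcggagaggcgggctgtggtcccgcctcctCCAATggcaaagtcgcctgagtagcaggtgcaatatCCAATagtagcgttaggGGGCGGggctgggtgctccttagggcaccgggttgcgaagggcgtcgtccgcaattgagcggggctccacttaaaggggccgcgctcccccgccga
Abca3, chr17:24351773-24352072, plus strand: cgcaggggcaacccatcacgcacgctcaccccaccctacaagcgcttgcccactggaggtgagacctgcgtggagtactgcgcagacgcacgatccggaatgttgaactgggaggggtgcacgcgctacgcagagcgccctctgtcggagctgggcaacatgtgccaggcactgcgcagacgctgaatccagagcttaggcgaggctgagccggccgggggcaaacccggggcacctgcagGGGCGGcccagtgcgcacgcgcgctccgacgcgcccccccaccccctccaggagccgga
Abce1, chr8:79711691-79711990, minus strand: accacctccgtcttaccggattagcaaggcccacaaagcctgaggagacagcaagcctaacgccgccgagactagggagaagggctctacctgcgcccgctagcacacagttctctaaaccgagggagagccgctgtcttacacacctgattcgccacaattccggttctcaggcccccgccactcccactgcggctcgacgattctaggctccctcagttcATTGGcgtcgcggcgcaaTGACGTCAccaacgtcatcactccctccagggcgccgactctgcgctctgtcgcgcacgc
Abcg5, chr17:84682962-84683261, minus strand: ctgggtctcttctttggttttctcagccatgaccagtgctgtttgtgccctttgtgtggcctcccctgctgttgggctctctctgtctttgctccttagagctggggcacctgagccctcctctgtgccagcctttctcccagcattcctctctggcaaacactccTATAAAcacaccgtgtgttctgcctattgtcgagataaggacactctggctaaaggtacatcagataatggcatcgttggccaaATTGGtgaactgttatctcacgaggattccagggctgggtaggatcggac

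A RefSeq window was found for 26 of the 35 genes (30 windows). The Abca7 window held 1 GC box and 2 CCAAT boxes, and the Abca3 window 1 GC box. A GC box was in 56.7% of member windows and in 35.7% of all 32851 windows, and member windows held a median of 19.5 CpG dinucleotides against 7.0 overall. The nuclear receptor hexamer was in 16.7% of member windows and 16.3% of all windows, the TATA box in 16.7% and 13.6%, the E-box in 13.3% and 7.15%, and CCAAT in 33.3% and 37.4%. The cAMP response element was in the Abce1 window alone among members (3.33% of windows) and in 1.79% of all windows. The 32851 windows were not limited to genes on the array or to measured genes, so the shares compare unlike sets. These are letter matches in short windows and no more.

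Subfamily G consists of paired transporters for sterols and other compounds, and its 5 measured members split. Abcg4, a sterol exporter, read 378.6 in primitive HSC and 1674 in maturing HSC, so it was at least 3.80-fold lower in primitive HSC by this probe set. The other Abcg4 probe set read 1071 in primitive and 685.0 in maturing HSC (log2 ratio 0.65). The 2 probe sets thus disagreed by 2.57 on the log2 scale, the widest gap of any member, and Abcg4 has no settled direction.

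Abcg1, which exports cholesterol to HDL particles, read 1756 in primitive HSC and 2919 in maturing HSC, a log2 ratio of -0.73. The probe set used for Abca1, the other cholesterol exporter to HDL, lay on the opposite side, but the Abcg1 ratio was under the 0.82 SD among probe sets and the Abca1 probe sets were split. Abcg5 and Abcg8, whose products form a single sterol exporter, lie next to each other. RefSeq gives Abcg8 a pair of start windows, of which one shares 209 of its 300 bases with the Abcg5 window, read on the opposite strand and including the TATAAA printed above, and the other shares 0. Abcg5 read 782.7 in primitive HSC and 104.5 in maturing HSC (at least 1.77-fold higher in primitive), and Abcg8 read 683.4 and 334.2 (at least 1.55-fold higher in primitive). Both were above the floor on the primitive array alone, and both kept a ratio above 0 under every setting that measured them. With the floor at percentile 25 Abcg5 passed 4-fold, at 2.48 on the log2 scale. Abcg3 read 772.9 in primitive and 506.3 in maturing HSC (0.61), with its other probe set at -0.71.

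Genes that work with the cholesterol exporters went both ways. Of 10 such genes on the array, covering the liver X and retinoid X receptors, apolipoproteins and intracellular cholesterol carriers, 9 were measured, 5 higher and 4 lower in primitive HSC, 0 passed 4-fold in either direction, and their median was 0.01. Apoe, the lipid-accepting apolipoprotein E, read 1565 in primitive HSC and 133.7 in maturing HSC (at least 3.55-fold higher in primitive). Mylip, a ligase that degrades the LDL receptor, had a log2 ratio of 0.90, and Scarb1, an HDL receptor, -0.76. With the hybridisation controls 8 of the 9 were lower in primitive HSC, and the median of this list was -0.66.

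Among the full transporters of subfamily B, the P-glycoprotein drug pump genes were barely above the floor. Abcb1a read 448.3 in primitive HSC and 346.5 in maturing HSC, and Abcb1b read 30.1 in primitive HSC and 535.4 in maturing HSC. Each was above the floor on 1 array only, on opposite sides, and their bounds were 0.02 and -0.28. Abcb4, the phosphatidylcholine exporter of bile, read 825.3 in primitive HSC against 797.7 in maturing HSC. Abcb11, the bile salt export pump, read 706.4 in primitive HSC against 570.7 in maturing HSC. The ratios or bounds of all 4 lay within 0.31 of 0 on the log2 scale, but those of Abcb1a and Abcb1b are limited by the floor. With the floor at percentile 25 the Abcb1b bound was -1.93, and with the hybridisation controls all 4 were below 0 with a median of -0.73. Abcb1a, Abcb1b and Abcb4 are adjacent, closely similar genes, and how far their probe sets bind each other's transcripts was not tested.

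The smaller, pairing transporters of subfamily B sit in mitochondria and lysosomes. Abcb10, of the mitochondrial inner membrane and needed for heme synthesis in red cell precursors, read 1170 in primitive HSC and 588.7 in maturing HSC, a log2 ratio of 0.99, while its other 2 probe sets gave bounds of 0.76 and -0.81. Abcb8, also mitochondrial, read 394.0 in primitive and 811.0 in maturing HSC (at least 1.84-fold lower in primitive). Abcb9, a lysosomal peptide transporter, read 580.1 in primitive and 168.1 in maturing HSC (at least 1.32-fold higher in primitive), and the porphyrin transporter gene Abcb6 was under the floor on both arrays. The 3 measured genes therefore had no common direction.

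Genes of mitochondrial iron-sulfur cluster and heme synthesis showed none either, with 14 of 17 measured, 8 higher and 6 lower in primitive HSC, and a median of 0.07. A single gene passed 4-fold, toward primitive HSC. It was Fdx1, the electron carrier ferredoxin, with 4202 in primitive and 744.6 in maturing HSC. Cpox, an enzyme of heme synthesis, had a log2 ratio of -1.69, and Isca2, an iron-sulfur assembly factor, 1.44. The list's median was -0.84 with the hybridisation controls.

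For antigen peptide loading, which the TAP transporters of this superfamily feed, 7 of 9 genes were measured, and 6 of them were lower in primitive HSC with a median of -0.74. The exception was B2m, the light chain of MHC class I, at 1.43. Tap1, a subunit of the peptide transporter named outside the Abc series, was at -0.15 and Tap2 was under the floor on both arrays. Canx and Tapbp, a general chaperone and the chaperone that bridges TAP to class I, were both at -1.91, and the disulfide isomerase gene Pdia3 at -2.41 was the 1 gene past 4-fold. Of the 7 genes, 5 were lower in primitive HSC under quantile normalization.

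**Figure D3:**
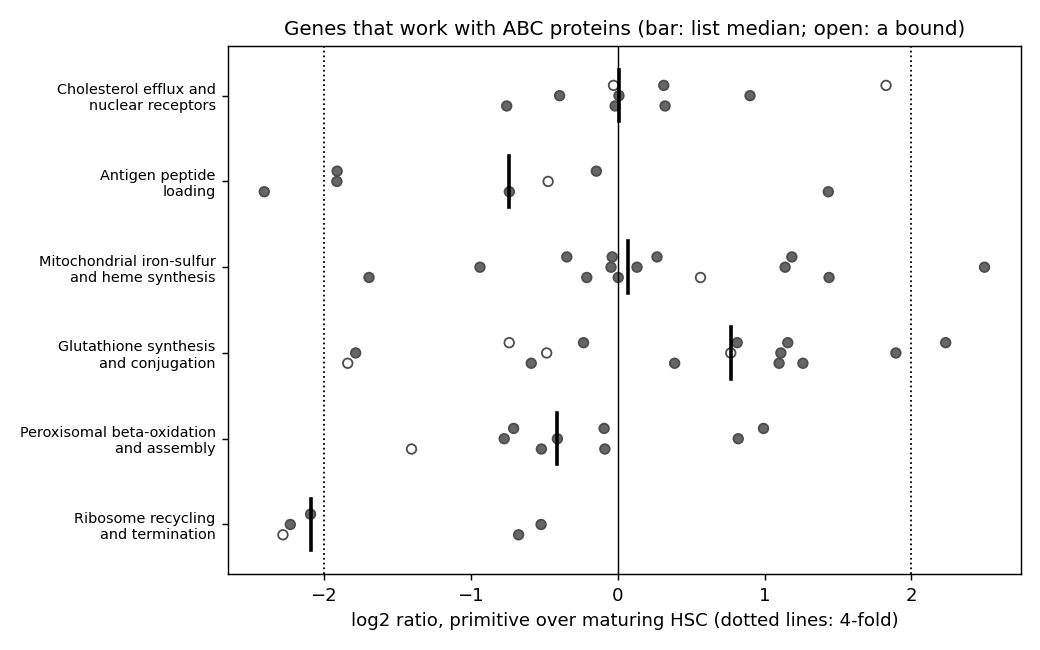
Log2 ratio of primitive over maturing HSC for measured genes of 6 lists whose products work with ABC proteins, 1 array each; open points are bounds, bars are list medians and dotted lines mark 4-fold. The ribosome recycling list lies wholly left of 0 with a median of -2.09, and the cholesterol list is centred at 0.01.

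Subfamily C, the multidrug resistance proteins and the sulfonylurea receptors, was mostly under the floor. Of its 8 genes, 6 (Abcc2, Abcc3, Abcc6, Abcc8, Abcc9 and Abcc10) were under the floor on both arrays. These include organic anion exporters of liver and the regulatory subunits of ATP-sensitive potassium channels. The exceptions were Abcc1 and Abcc5.

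Abcc1, the exporter of glutathione conjugates and leukotriene C4, read 2033 in primitive HSC and 2861 in maturing HSC, a log2 ratio of -0.49. A second probe set gave -0.64, so its probe sets agreed to within 0.15. Abcc5, an exporter of cyclic nucleotides among other substrates, read 2822 in primitive HSC and 1964 in maturing HSC (0.52). Of its 5 measured probe sets, 3 were higher and 2 lower in primitive HSC, and its sign turned to -0.45 with the hybridisation controls.

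Of 16 genes of glutathione synthesis and conjugation, the pathway that supplies Abcc1 with substrates, 15 were measured, 9 higher and 6 lower in primitive HSC, with a median of 0.77. The median was -0.16 with the hybridisation controls. Gsta4, a glutathione transferase, was the 1 gene past 4-fold, with 2196 in primitive and 467.0 in maturing HSC. Mgst3, a membrane-bound transferase, stood at 1.89, and Gclc, the catalytic subunit of the first enzyme of glutathione synthesis, read 425.8 in primitive and 1575 in maturing HSC (at least 3.57-fold lower in primitive).

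Subfamily D transporters bring fatty acyl-CoA into peroxisomes and cobalamin out of lysosomes. Abcd3, a peroxisomal membrane protein, read 1147 in primitive HSC and 2033 in maturing HSC, a log2 ratio of -0.83. Abcd4, the cobalamin exporter, read 560.2 in primitive and 163.0 in maturing HSC (at least 1.27-fold higher in primitive), and Abcd2 was under the floor on both arrays. Of 11 genes of peroxisomal beta-oxidation and assembly, 9 were measured, 7 of them lower in primitive HSC, with a median of -0.41 and 0 past 4-fold. Pex3, a peroxisome assembly factor, was at least 2.64-fold lower in primitive HSC, Pex13 had a log2 ratio of 0.99 and Acot8 0.82. The split of this list was 5 higher and 5 lower under quantile normalization.

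Subfamilies E and F act in translation. Abce1, which splits ribosomes into subunits after termination, read 1700 in primitive HSC and 3144 in maturing HSC, a log2 ratio of -0.89. Its other probe set read 303.4 in primitive HSC and 4301 in maturing HSC, at least 9.75-fold lower in primitive. Both probe sets were lower in primitive HSC, but the size of the difference depended on the probe set, and Abce1 passed 4-fold with the median of probe sets (-2.09), without probe sets whose ID marks binding to more than 1 transcript (-3.29) and with the hybridisation controls (-3.79). The brightest probe set was chosen again under each setting. For the values of -3.29 and -3.79 it was the other Abce1 probe set, not the one used as reported.

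Abcf1, which binds initiation factor eIF2, read 1957 in primitive HSC and 2769 in maturing HSC (-0.50), with 4 measured probe sets from -1.11 to 1.44. Abcf2 read 578.7 in primitive and 196.6 in maturing HSC (at least 1.31-fold higher in primitive). Abcf3 read 1041 in primitive and 915.8 in maturing HSC (0.19), while its other 2 measured probe sets gave bounds of -0.45 and -1.19. The F genes thus had no common direction.

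The genes whose products end translation and recycle ribosomes alongside Abce1 were lower in primitive HSC in 5 of 5 measured cases (9 on the array), with a median of -2.09. Hbs1l, a rescue factor for stalled ribosomes, read 78.8 in primitive HSC and 2139 in maturing HSC (at least 4.85-fold lower in primitive). Gspt1 and Etf1, the release factors eRF3 and eRF1, stood at -2.23 and -2.09. Each of these 3 passed 4-fold, where 4.69% of all measured genes did so in this direction. All measured genes of the list remained below 0 under each of the 5 scalings, of which the values as deposited nearly repeat the reported ones. Each gene is represented by its brightest probe set, and agreement with any other probe sets of these genes is not given here.

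Probe sets of an ABC gene disagreed often. Of 10 members with more than 1 measured probe set, 3 (Abca3, Abcc1 and Abce1) had all of them on the same side, whereas 55.6% of 2764 such genes on the array did. The median range between a member's probe sets was 1.71 on the log2 scale, and over all such genes 0.97. Both measures depend on the number of probe sets per gene, from 2 to 5 in these members. The comparison with all genes was not matched for that number or for intensity. The members without a second measured probe set, Abca7 among them, could not be checked in this way.

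**Figure D4:**
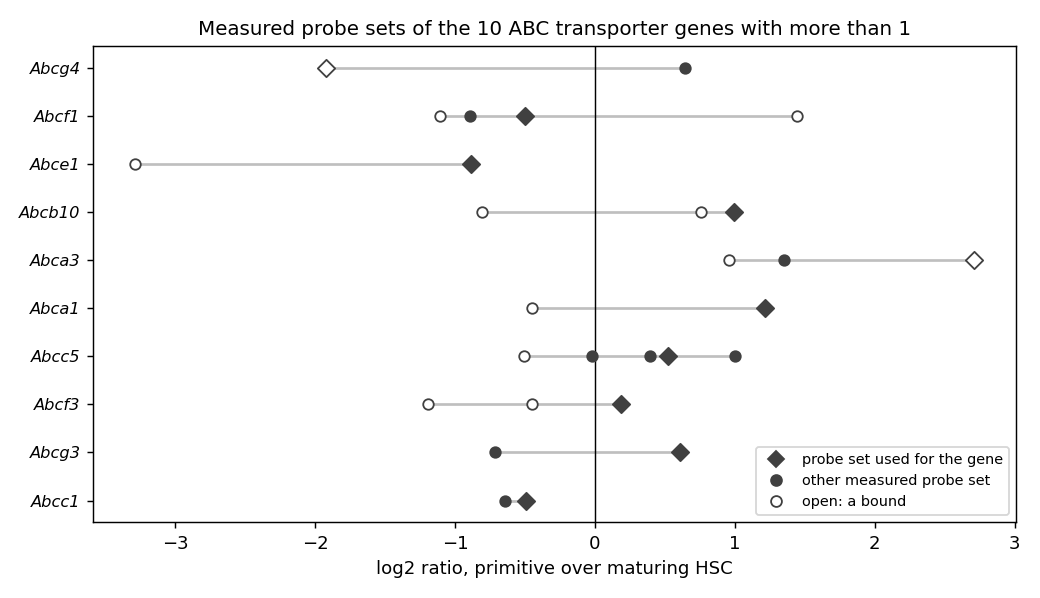
Log2 ratio of primitive over maturing HSC for every measured probe set of the 10 ABC transporter genes with more than 1, 1 array each; diamonds are the probe sets used for the gene, open symbols are bounds. The points of 7 genes fall on both sides of 0, those of Abca3 lie right of it, and those of Abcc1 and Abce1 left of it.

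Processing settings moved the members' ratios by different amounts. Abca7 stayed past 4-fold throughout, but with 1 probe set above every floor tried, only the scalings could move its ratio. Abca3 fell short of 4-fold with the higher floor (a bound of 1.49) and with the median of probe sets (1.35), and Abca1 was at 0.24 with the hybridisation controls.

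**Figure D5:**
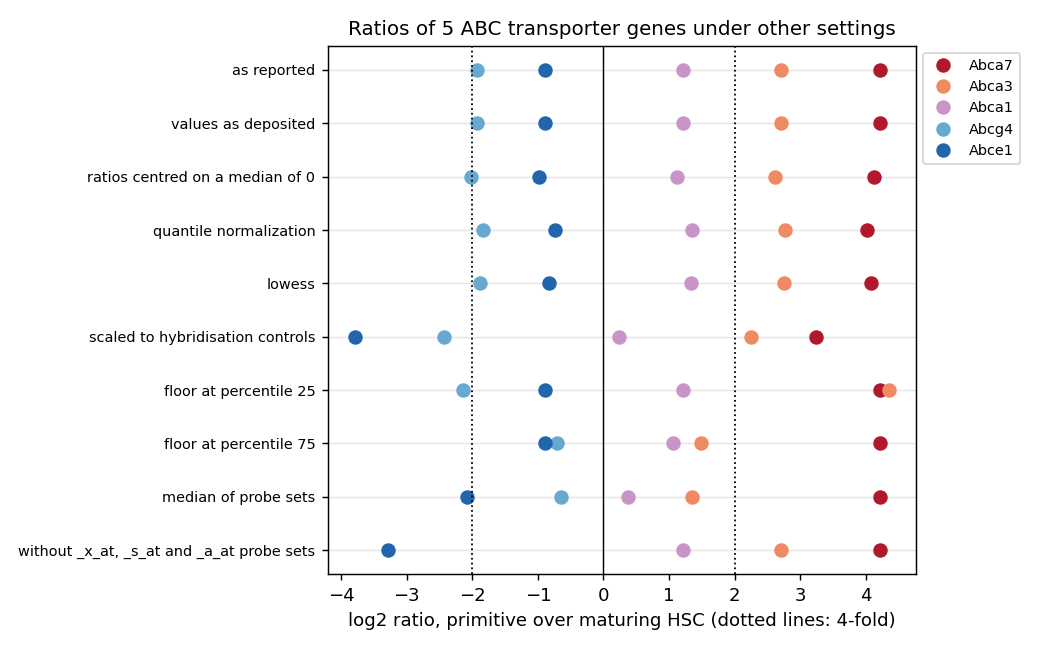
Log2 ratio of primitive over maturing HSC for 5 ABC transporter genes as reported and under 9 other settings, 1 array each; dotted lines mark 4-fold. Abca7 stays right of 3, Abce1 ranges from -0.74 to -3.79, and Abcg4 has no point in the last row because the IDs of both its probe sets mark binding to more than 1 transcript. In the hybridisation control row and the last row Abce1 is represented by its other probe set.

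The table held 22690 probe sets, with median intensities of 425.4 (primitive) and 454.8 (maturing). All 10 stem cell markers analysed were above the floor on at least 1 array and 7 on both, with 5 higher and 5 lower in primitive HSC. The receptor gene Kit read 3802 in primitive and 5053 in maturing HSC. Procr was past 4-fold toward primitive HSC (log2 ratio 2.61), and Meis1, Tek and Hlf were over 2-fold lower there. Some genes of the mature cell marker lists were above the floor on both arrays. They were 10 of 12 neutrophil and monocyte markers, 4 of 10 macrophage markers and 2 of 10 T and natural killer cell markers. For B cell markers the count was 2 of 7, for erythroid 3 of 5, for megakaryocyte 3 of 6 and for endothelial and stromal 1 of 8. Summed over 12 neutrophil and monocyte markers, all measured, the signal was 168360 in primitive and 96326 in maturing HSC. Of these, 8 were higher in primitive HSC, while Mpo and Csf3r were at least 5.87-fold and at least 5.84-fold lower there, and Ctsg and Ltf were over 2-fold lower. Over 10 macrophage markers (6 measured, with Marco, Cd163, C1qa and C1qc under the floor) the sums were 6292 and 4441. Over 10 T and natural killer cell markers (7 measured, with Cd3e, Cd3g and Cd2 under the floor) they were 21386 in primitive and 10756 in maturing HSC. Cd3d alone read 8673 in primitive HSC against 44.2 in maturing HSC. Without Cd3d, left out after its values were seen, the sums were 12713 in primitive and 10711 in maturing HSC. Of the 7 measured genes of this list, 5 were higher in primitive HSC. Besides Cd3d these were Klrd1, Gzma, Ncr1 and Cd5, with bounds of 2.11, 1.71, 1.42 and 0.30. Nkg7 and Gzmb were lower in primitive HSC (-0.33 and -0.65), and Nkg7 was bright on both arrays (6299 in primitive and 7933 in maturing HSC). The sums for 7 B cell markers were 2016 and 4364, for 8 endothelial and stromal markers 3364 and 4250, for 5 erythroid markers 4816 and 4239, and for 6 megakaryocyte markers 6440 and 6422. Without the gene of largest difference, the endothelial and stromal sums were 2717 in primitive and 2216 in maturing HSC (Emcn left out). The erythroid sums were then 3164 and 3795 (Klf1), the megakaryocyte sums 4621 and 6382 (Gp9) and the B cell sums 1813 and 3161 (Vpreb3). These sums include genes under the floor on both arrays, and they add signals in arbitrary units, so they are not amounts of RNA. Myeloid and lymphoid cells also use Abca7 and Abca1, and the part these cells have in the values above was not tested. In such bulk libraries fewer cells of a type and less RNA per cell cannot be told apart.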

How the data were processed

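The deposited values are MAS5 signal intensities on a linear scale, per the submitters' processing notes, 1 array per population; the sources used here name no MAS5 version, and detection calls were not used here. The 2% trimmed means were 1000.6 (primitive) and 1000.4 (maturing). MAS5 scaling hides any difference in total RNA per cell. The trimmed means were first made equal. A floor was then applied at the median of both arrays' non-control values, and each gene was represented by its brightest probe set on average. That probe set was chosen again after each scaling. Gene names came from the platform annotation (20380 probe sets with 1 symbol, 691 with several, 1555 without); names were taken from single-symbol probe sets only. All members above the floor on at least 1 array are named, as are up to 3 genes of each partner list with the largest ratios, with further members where the text needed them. The members and lists were chosen with earlier results of these data known. No test was possible, and the number of arrays limits the precision. The steps were tested on simulated data with changes of at least 8-fold in bright genes. That test does not cover smaller changes or values near the floor. Alternatives were other scalings (deposited values, median centring, quantile, lowess with fraction 0.3, hybridisation controls), floors at percentiles 25 and 75, thresholds of 2-fold and 8-fold, other probe set rules and genes above the floor on both arrays. Promoter windows came from RefSeq (GRCm38.p6). Figures were drawn with matplotlib 3.10.9, lowess was run in statsmodels 0.14.6, and the rest used scipy 1.17.1, pandas 2.3.3 and numpy 2.4.6 under Python 3.11.15.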

Additional observations from a re-analysis of the deposited data

How the results depend on the processing

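No paired analysis was possible because each population has 1 array. The values as deposited, quantile normalization and lowess left the ABC counts past 4-fold at 2 higher in primitive HSC and 0 higher in maturing HSC. The deposited arrays already had nearly equal trimmed means (1000.6 and 1000.4), so that setting could hardly differ from the reported one. The count higher in primitive HSC was 3 with the floor at percentile 25 (Abcg5 added) and at 2-fold (Abca1 added), and 1 with the floor at percentile 75, at 8-fold, with the median of probe sets and over genes measurable in both populations. The count higher in maturing HSC was 1 with ratios centred on 0 (Abcg4), the floor at percentile 25 (Abcg4), 2-fold (Abcg4), the median of probe sets (Abce1) and without probe sets whose ID marks binding to more than 1 transcript (Abce1), and 2 with the hybridisation controls (Abce1 and Abcg4). With those controls, as without the probe sets so marked, Abce1 was represented by its other probe set. The members' median was -0.67 with the hybridisation controls and -0.24 with the floor at percentile 75, against 0.33 as reported. Members above 0 numbered 7 of 23 with the hybridisation controls, 6 of 12 with the floor at percentile 75 and 8 of 13 over genes measurable in both populations, against 16 of 24 as reported. Over all measured genes, 1816 of 9101 were above 0 with the hybridisation controls, with a median of -0.74.

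Over all genes, the counts past 4-fold were 305 toward primitive HSC and 415 toward maturing HSC. These became 91 and 1231 with the hybridisation controls, 761 and 998 with the floor at percentile 25, 165 and 126 at percentile 75, 1385 and 1559 at 2-fold, 66 and 60 at 8-fold, and 199 and 193 over genes measurable in both populations. The changed counts at other floors and thresholds, and over genes measurable in both populations, follow from those settings by construction. The hybridisation controls had a median log2 ratio of 0.974, and scaling to them moves all ratios toward maturing HSC by construction. Why the controls differed between the arrays was not tested. Signals near the floor limit most ABC members, of which 11 were not measured and 11 have only a bound.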
